A study of Mus musculus with 12 samples.

Results

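JAK-STAT signaling was examined through 42 core genes of the pathway, all of which were found by symbol among the 24525 genes counted in each library. They comprise 4 ligands, 5 receptors of the gp130 family, 4 interferon receptor chains, 2 single-chain receptors, 4 Janus kinases, 6 Stat factors, 8 genes of the Socs family, 4 Pias genes, and a group of 4 phosphatases with the adaptor Sh2b3. The rule for these genes uses their place in the pathway and no measured value, but the list was drawn up with earlier results of these data in view. The libraries came from neural stem/progenitor cells (NSPCs) grown as neurospheres, floating cultures started from E14.5 forebrain of C57BL/6 embryos and taken at passage 1, in medium with 20 ng/ml EGF and 10 ng/ml bFGF. Of the 6 libraries analysed, 3 were wild-type and 3 were Ythdf2-/-, and none of the cultures had received any further treatment. Ythdf2 is a reader protein that binds m6A-modified mRNA and promotes its decay. The Ythdf2-/- embryos came from heterozygous intercrosses after a ubiquitously expressed Cre had removed a loxP-flanked region with exon 1, so the deletion was not restricted to the neural lineage. The libraries are the input of an m6A immunoprecipitation experiment and hold fragmented mRNA that never met the antibody. The 6 m6A-IP libraries are not analysed here.

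In this pathway, a cytokine brings receptor chains together on the cell surface, the Janus kinases bound to those chains phosphorylate them, and Stat factors dock there, become phosphorylated in turn and enter the nucleus. Ligands of the interleukin-6 family share the receptor chain gp130, encoded by Il6st, and act mainly through Stat3, which in neural progenitors is known for driving astrocyte genes such as Gfap. Socs proteins are induced by the Stats and shut the receptors off, Pias proteins restrain Stats in the nucleus, and tyrosine phosphatases remove the phosphate marks. The comparison asks whether the mRNA level of these components differed between wild-type and Ythdf2-/- NSPCs.

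Library totals were 11029827 to 13185778 counted reads, and values are given as CPM, read counts relative to the library total, scaled with TMM factors of 0.988 to 1.03. Ythdf2 had 840, 961 and 999 reads in the wild-type libraries and 137, 198 and 138 in the Ythdf2-/- libraries, which matches the labels. The progenitor markers were abundant in all libraries, with a summed level of 5194 to 8746 CPM over 7 genes in wild type and 7898 to 9111 CPM in Ythdf2-/-. Of the 8 markers of microglia and blood cells, C1qa, C1qb, Trem2 and Ptprc had 0 reads throughout, Aif1 and Csf1r at most 2, Cx3cr1 3 to 12 and Cd68, which encodes a lysosomal protein, 27 to 70 reads a library. Wild-type replicate 3 stood apart. Its mean Spearman correlation with the other 5 libraries was 0.8997, against 0.962 to 0.970 for each of the rest. The progenitor markers split there, since of the 6 libraries it had the least of Nes, Vim and Fabp7 and the most of Sox2, Pax6 and Hes5, with the lowest sum over the 7. It held more reads of neuronal markers, 1855 CPM over 6 genes against 1058 to 1285 CPM in the others. Reads of 4 Y-linked genes were present in wild-type replicates 1 and 2 and Ythdf2-/- replicate 3 (1111 to 2147 reads) and nearly absent from the other 3 libraries (0 or 1 read). The study describes the replicates as biological and the labels do not say whether they were separate embryos, so the p-values measure the spread between these libraries. Likewise, in bulk libraries a smaller number of expressing cells and less RNA per cell cannot be told apart.

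For most of the pathway the values of the genotypes lay close together, while 3 genes stood out by the size of their difference. Socs3, the feedback inhibitor of gp130 receptors, was 16.9-fold lower in the mean of Ythdf2-/- libraries, Osmr, the oncostatin M receptor chain, 5.56-fold lower, and Socs2, an inhibitor best known for restraining growth hormone signaling, 4.60-fold lower. These sizes lean on wild-type replicate 3, without which they were 4.37-fold, 3.05-fold and 2.07-fold. No kinase, Stat factor, Pias gene or phosphatase had an unadjusted p under 0.05 by edgeR, and among them Jak3 and Pias4 had genotypes that did not overlap. Of the 42 members, 35 passed edgeR's filter on low counts and were tested. The 7 that did not were Cntf, Ctf1, Clcf1, Stat4, Stat6, Socs1 and Ptpn6. In 6 of the 35 members, all 3 wild-type libraries but only 2 of the Ythdf2-/- libraries reached the CPM level that the filter requires. These were Osmr, Il6ra, Jak3, Stat5a, Socs2 and Cish. Lif reached that level in 2 libraries of each genotype, and the other 28 in all 6 libraries.

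After adjustment, 0 of the 35 members had a p under 0.05 by the quasi-likelihood test of edgeR, and the same held for all 13112 genes tested (0.00%). DESeq2 called 1 member, Socs3, against 0.237% of the genes to which it gave an adjusted p. At an unadjusted p under 0.05, edgeR picked out 3 members, Socs3, Osmr and Socs2, which is 8.57% of the members tested against 3.63% of all genes. All 3 were lower in Ythdf2-/-, a direction that 1.82% of all genes took at this threshold. The 3 Ythdf2-/- libraries lay wholly above the 3 wild-type libraries for 2 members, or 5.71%, Lifr and Pias4, and the background for that is 5.24% of all genes tested. They lay wholly below for 6 members, or 17.1%, against 4.92% of all genes, namely Osmr, Il6ra, Jak3, Socs2, Socs3 and Sh2b3. The exact permutation test (two-sided) gives p = 0.1 for such a gene, and with 3 libraries a side no smaller p is possible. The median log2 fold change of the 35 members was -0.03, and that of all genes was -0.01. A fold change under -2 on the log2 scale was found in 3 of the 35 members and in 0.732% of all genes. For 24 members the 95% interval of the log2 fold change lay within 1 unit of 0 on either side.

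**Figure D1:**
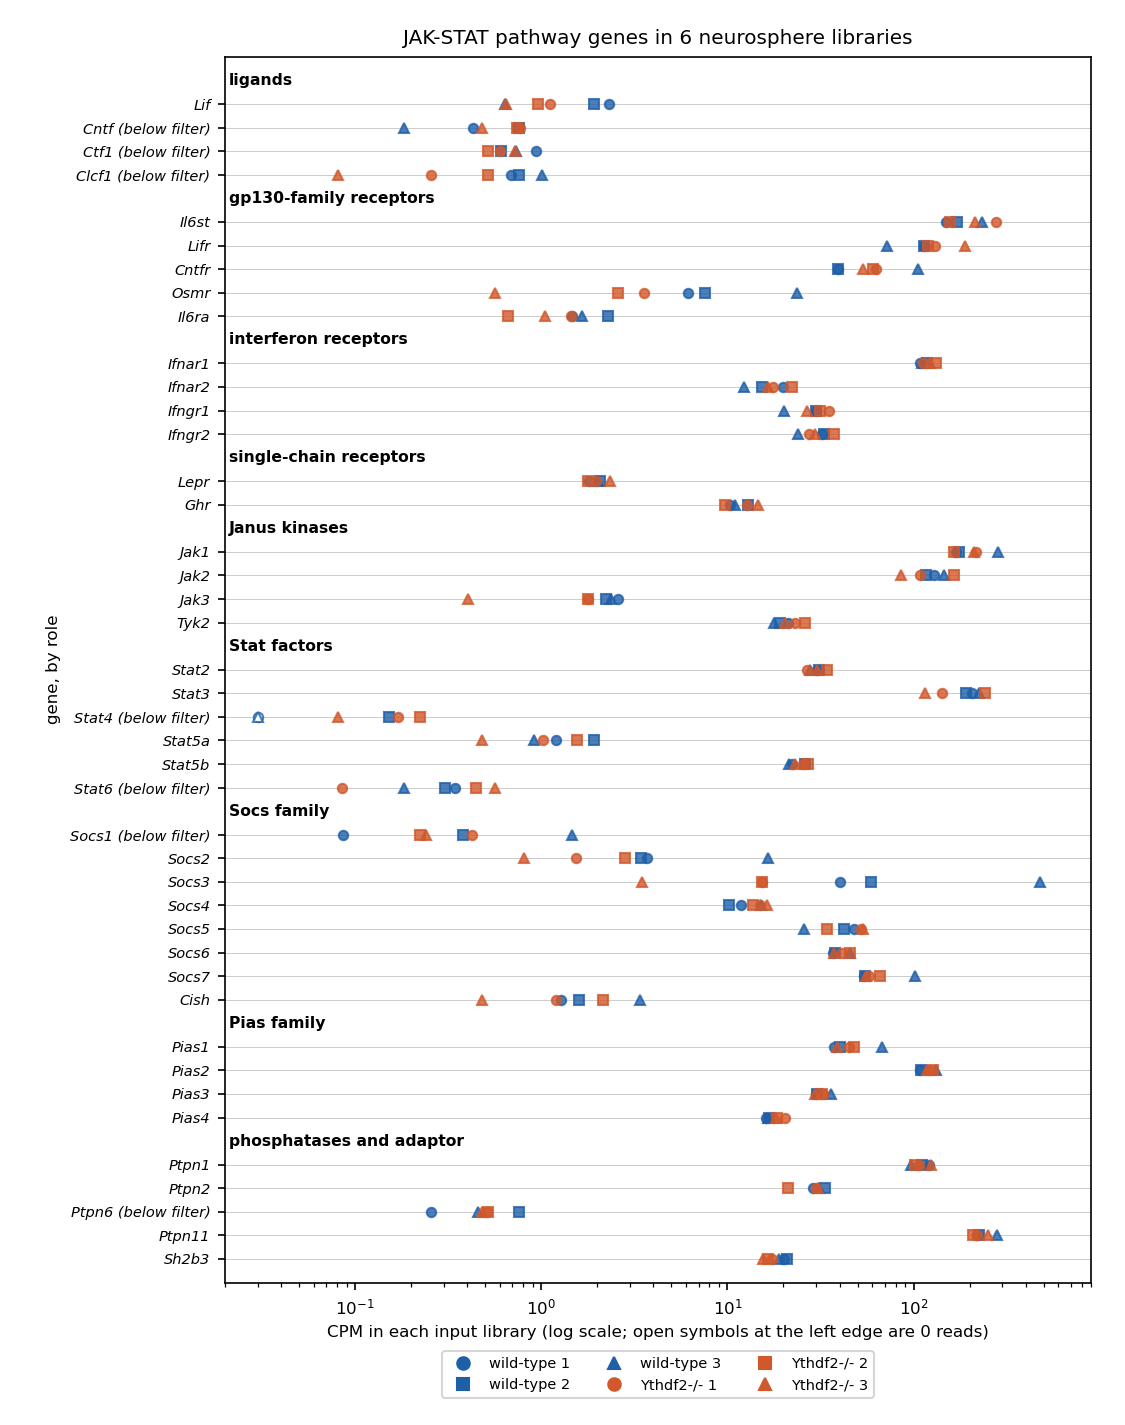
CPM of each of the 42 members (rows, grouped by role) in the 3 wild-type (blue) and 3 Ythdf2-/- (orange) libraries on a log axis, with a symbol for each replicate number. Most rows form tight clusters that mix both colours, while in the rows of Socs3, Osmr and Socs2 the blue symbols lie to the right of the orange ones, with wild-type replicate 3 farthest right.

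The ligands were scarce. Lif, which signals through Lifr and gp130, was the one ligand to pass the filter, with 2.31, 1.91 and 0.641 CPM in wild-type replicates 1, 2 and 3 and 1.11, 0.963 and 0.644 CPM in Ythdf2-/- replicates 1, 2 and 3, the order used for all values below. Its lowest value belonged to wild-type replicate 3 and the genotypes overlapped. The log2 fold change of Lif was -0.84 (standard error 0.537), and without that library it was -1.21. Cntf, the ciliary neurotrophic factor, had 5, 10 and 2 reads in wild type and 9, 10 and 6 in Ythdf2-/-. Ctf1, or cardiotrophin-1, had 11, 8 and 8 against 7, 7 and 9 reads. Both lie at the edge of detection with overlapping genotypes, and 979 of the 1205 exon bases of Cntf are shared on the same strand with the annotated gene Gm44505. Clcf1, a ligand of the same receptor as Cntf, had 8, 10 and 11 reads in wild type and 3, 7 and 1 in Ythdf2-/-, so its genotypes did not overlap, at a level below the filter. Outside the members, 9 of 16 other cytokines of the pathway had 0 reads in all 6 libraries, among them Il6, Osm, Ifnb1 and Ifng. A count of 0 allows a level of up to 0.228 to 0.272 CPM in these libraries, set by 3 reads of the library total and covering counting error only.

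Among the receptors of the gp130 family (positions here and below in GRCm38.p6, the assembly also called mm10), Il6st was the most abundant per transcript length, at 36.9 RPKM on average (CPM divided by the kilobases of exon, the scale used here to compare genes). Its levels were 149.9, 172 and 234 CPM in wild type and 278, 157 and 214 CPM in Ythdf2-/-. The genotypes overlapped, and the log2 fold change was 0.22 (95% interval -0.42 to 0.87). Lifr (chromosome 15, 7090610 to 7197489, plus strand), which pairs with gp130 to receive Lif, was among the 2 members with all Ythdf2-/- libraries on top, at 113, 114 and 71.9 CPM against 130.0, 119 and 189 CPM. The gap between the highest wild-type and the lowest Ythdf2-/- library was small, since 113.6 CPM faced 119.3 CPM. The log2 fold change of Lifr was 0.55 (standard error 0.258, unadjusted p = 0.0736, adjusted p = 0.999 by edgeR). With wild-type replicate 3 left out, the value was 0.37. Cntfr, the chain that binds Cntf and lacks a signaling domain of its own, had 39.4, 39.4 and 106 CPM in wild type and 62.8, 60.7 and 53.6 CPM in Ythdf2-/-. All 3 Ythdf2-/- libraries lay above wild-type replicates 1 and 2 and below wild-type replicate 3. With all 6 libraries the log2 fold change of Cntfr was -0.06, and without that library it was 0.58 (unadjusted p = 0.00158, adjusted p = 0.151 by edgeR), so its direction rested on 1 library.

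Osmr differed most within the receptor group. It lies at chromosome 15, 6813568 to 6874968, minus strand and encodes the chain that joins gp130 to receive oncostatin M, whose own gene Osm had no reads here. Osmr had 6.16, 7.56 and 23.7 CPM in wild type and 3.58, 2.59 and 0.563 CPM in Ythdf2-/-. Every wild-type library was above every Ythdf2-/- library, with wild-type replicate 3 highest and Ythdf2-/- replicate 3 lowest. The means were 12.5 ± 9.75 CPM (SD, n = 3) and 2.25 ± 1.54 CPM (SD, n = 3). The genotypes differed by a log2 fold change of -2.47 (standard error 0.800, unadjusted p = 0.0201, adjusted p = 0.999 by edgeR). Leaving out wild-type replicate 3 reduced the difference of the means from 5.56-fold to 3.05-fold and the log2 fold change to -1.61 (unadjusted p = 0.0385, adjusted p = 0.276 by edgeR). Il6ra, which binds interleukin-6 for gp130, was low at 1.45, 2.29 and 1.65 CPM in wild type and 1.45, 0.666 and 1.05 CPM in Ythdf2-/-. Its genotypes were separated by scaling alone, with 17 reads in the nearest library of each, and the log2 fold change of -0.77 had a 95% interval from -1.76 to 0.21.

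The interferon receptor chains were all expressed and none differed in level beyond its spread. Ifnar1, the first chain of the type I interferon receptor, led with 108, 117 and 111 CPM in wild type and 112, 131 and 123 CPM in Ythdf2-/-, or 16.7 RPKM on average. Its partner Ifnar2 averaged 15.8 ± 3.86 CPM in wild type and 18.8 ± 2.98 CPM in Ythdf2-/- (SD, n = 3 each). Ifngr1 and Ifngr2 form the receptor of interferon gamma. Ifngr1 had 29.8, 29.8 and 20.1 CPM against 35.1, 31.2 and 26.7 CPM. Ifngr2 had 32.3, 33.0 and 24.0 CPM against 27.5, 37.3 and 29.4 CPM. Log2 fold changes of the 4 chains were 0.08 to 0.24, each with overlapping genotypes and a 95% interval inside 1 unit of 0. The single-chain receptors were lower and as even. Ghr, the growth hormone receptor, had 10.4, 12.9 and 11.0 CPM in wild type and 12.8, 9.70 and 14.6 CPM in Ythdf2-/- (log2 fold change 0.11). Lepr, the leptin receptor, had 1.80, 2.06 and 2.01 CPM and 1.96, 1.78 and 2.33 CPM (log2 fold change 0.05).

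Of the Janus kinases, Jak1 and Jak2, the pair that gp130 receptors use, were the most abundant. Jak1 had 169, 176 and 284 CPM in wild type and 216, 165 and 210.4 CPM in Ythdf2-/-, or 38.4 RPKM on average, with wild-type replicate 3 highest. Without that library its log2 fold change went from -0.09 to 0.19, and neither passed a threshold. Jak2 had 129, 116 and 146 CPM against 108, 165 and 85.9 CPM, with the highest and the lowest value both in Ythdf2-/- libraries. Tyk2, the kinase bound to Ifnar1, had 21.1, 19.1 and 17.8 CPM against 23.2, 26.1 and 20.4 CPM (log2 fold change 0.27, 95% interval -0.13 to 0.67). Jak3 (chromosome 8, 71676383 to 71690577, plus strand), known from the lymphocyte receptors that use the common gamma chain, was close to the filter with 2.57, 2.21 and 2.38 CPM in wild type and 1.79, 1.78 and 0.402 CPM in Ythdf2-/-. Its genotypes did not overlap, but the size of the difference came mainly from Ythdf2-/- replicate 3, which held 5 reads. Its log2 fold change, -0.42 without that library, was -0.84 with all 6 (standard error 0.544, unadjusted p = 0.169, adjusted p = 0.999 by edgeR). The exons of Jak3 share 406 bases with Insl3 on the same strand, and those of Jak1 share 397 bases with Raver2 on the opposite strand.

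Stat3 (chromosome 11, 100886806 to 100939594, minus strand), the main effector of gp130, was by far the most abundant Stat, at 41.3 RPKM on average against 6.72 for Stat2 and 3.04 for Stat5b. Stat3 had 205, 192 and 224 CPM in wild type and 141, 241 and 116 CPM in Ythdf2-/-. The wild-type libraries stayed close together, while Ythdf2-/- replicate 2 lay above all of them and Ythdf2-/- replicates 1 and 3 below. Between genotypes, Stat3 had a log2 fold change of -0.32 (95% interval -1.002 to 0.37). Without Ythdf2-/- replicate 2 it was -0.68 (unadjusted p = 0.00758 by edgeR, with no adjusted p under 0.05). In that fit 4.14% of all genes had an unadjusted p under 0.05. Over the 6 fits that each left out 1 library the value ran from -0.68 to -0.11, so that library changed its size and not its direction. Stat2, the partner of type I interferon signaling, had 30.3, 31.0 and 27.6 CPM against 26.8, 34.3 and 30.4 CPM. Stat5b, an effector of growth hormone, had 22.3, 26.3 and 21.3 CPM against 25.4, 27.0 and 22.9 CPM. Both were even across the 6 libraries, with log2 fold changes of 0.04 and 0.11. Stat5a, a near-identical neighbour of Stat5b, had means of 1.34 ± 0.511 and 1.02 ± 0.536 CPM (SD, n = 3 each). The share of reads between the 2 paralogs is uncertain, because how reads that fit both genes were counted is not stated. Stat4 had 0, 2 and 0 reads in wild type and 2, 3 and 1 in Ythdf2-/-, and Stat6 had 4, 4 and 2 and 1, 6 and 7. Both are better known from immune cells and were at the floor of these libraries.

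**Figure D2:**
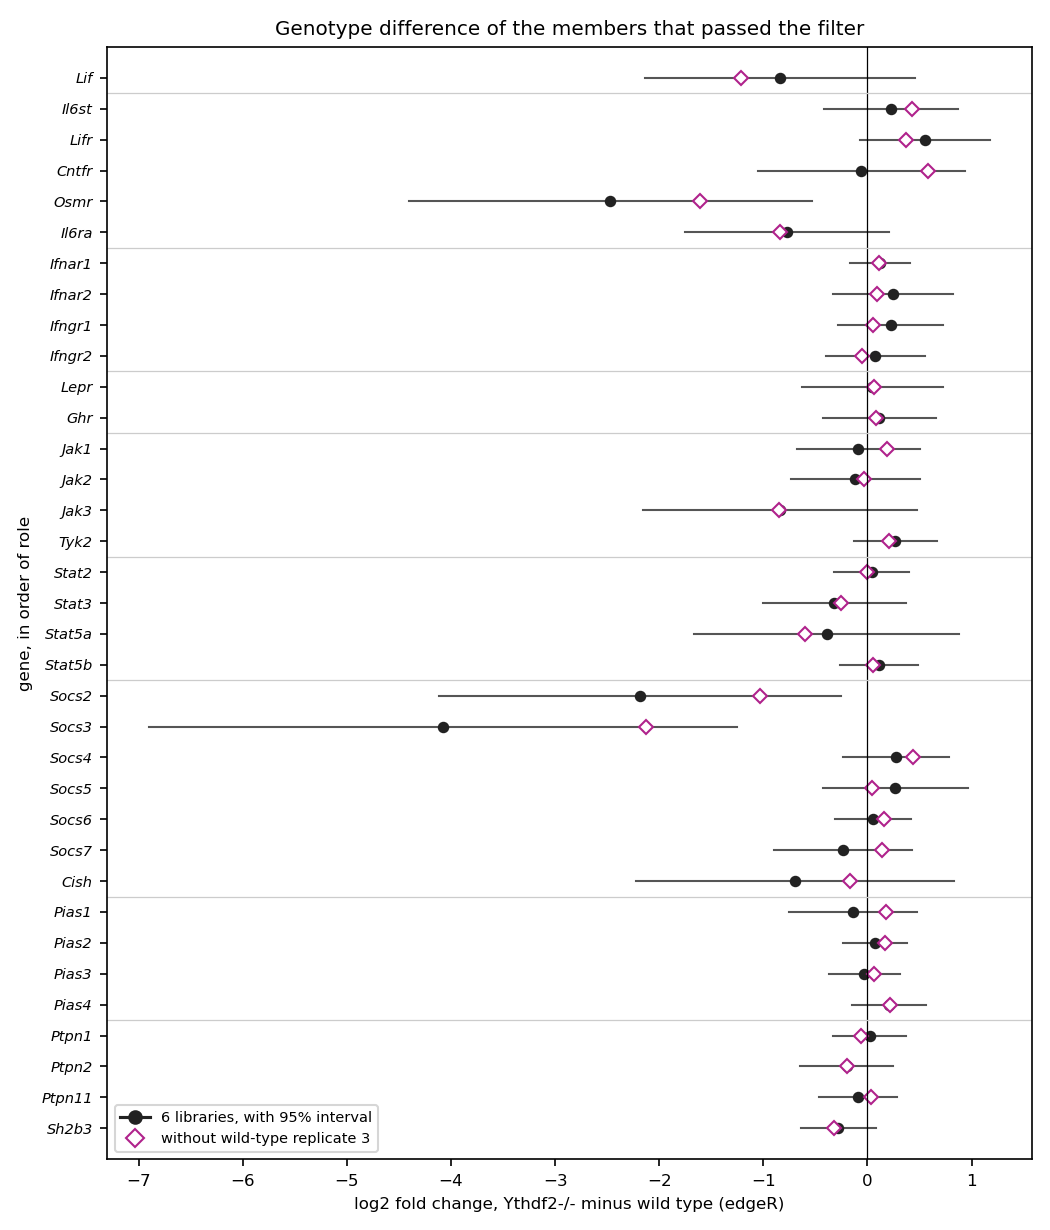
Log2 fold change of the 35 tested members, Ythdf2-/- minus wild type, with 95% intervals from edgeR (black) and the same value without wild-type replicate 3 (open diamonds), in order of role. Intervals that leave out 0 belong to Osmr, Socs2 and Socs3, and the diamonds of these 3 genes lie nearer to 0 than the dots.

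Within the Socs family, the feedback genes Socs3 and Socs2 were low in Ythdf2-/- while the others varied around the wild-type level. Socs3 lies at chromosome 11, 117966079 to 117970336, minus strand. It was counted with 472, 774 and 5200 reads in wild type and 179, 208 and 43 in Ythdf2-/-, which is 40.4, 59.1 and 476 CPM against 15.3, 15.4 and 3.46 CPM. All wild-type libraries lay above all Ythdf2-/- libraries, and the lowest wild-type value was 2.62 times the highest Ythdf2-/- value. Wild-type replicate 3 alone held 82.7% of the summed wild-type level. The means were 192 ± 246 CPM (SD, n = 3) and 11.4 ± 6.86 CPM (SD, n = 3), so the wild-type SD was larger than its mean. The log2 fold change of Socs3 was -4.07 (standard error 1.17, 95% interval -6.90 to -1.25). Its unadjusted p was 0.0120 and its adjusted p 0.999 with edgeR, while DESeq2 gave an adjusted p of 0.00815 and the alternatives spanned 0.00815 to 0.99998. By fold change Socs3 ranked 7th from the lowest among 13112 genes. Without wild-type replicate 3 the difference shrank to 4.37-fold, a log2 fold change of -2.13 (unadjusted p = 0.00885, adjusted p = 0.199 by edgeR). Over the 6 fits that each left out 1 library, the log2 fold change ran from -4.55 to -2.13.

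Socs2 lies at chromosome 10, 95383903 to 95417321, minus strand and had 3.68, 3.43 and 16.6 CPM in wild type and 1.53, 2.81 and 0.805 CPM in Ythdf2-/-. Wild-type replicate 3 was again the highest and Ythdf2-/- replicate 3 the lowest, and the nearest libraries of the genotypes differed 1.22-fold. For Socs2 the log2 fold change was -2.18 (standard error 0.798, unadjusted p = 0.0322, adjusted p = 0.999 by edgeR). Without wild-type replicate 3 it was -1.04 (unadjusted p = 0.0807, adjusted p = 0.350 by edgeR), and the difference of the means went from 4.60-fold to 2.07-fold. Cish, a relative of Socs2 that Stat5 induces, had 2.09 ± 1.13 CPM in wild type and 1.27 ± 0.835 CPM in Ythdf2-/- (SD, n = 3 each), with wild-type replicate 3 on top and overlapping genotypes. Socs1, the inhibitor of interferon signaling, had 1, 5 and 16 reads in wild type and 5, 3 and 3 in Ythdf2-/-, with its highest count in the same library. Socs5 had 47.8, 42.4 and 25.7 CPM against 51.9, 34.1 and 53.6 CPM. Socs7 had 53.8, 54.9 and 102 CPM against 57.8, 66.0 and 55.4 CPM. In Socs5 wild-type replicate 3 was lowest of all and in Socs7 highest. Socs4 and Socs6 had means of 12.4 ± 2.48 and 39.9 ± 4.77 CPM in wild type and 14.96 ± 1.28 and 41.4 ± 4.26 CPM in Ythdf2-/- (SD, n = 3 each). Log2 fold changes of Socs4 to Socs7 were -0.23 to 0.27.

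**Figure D3:**
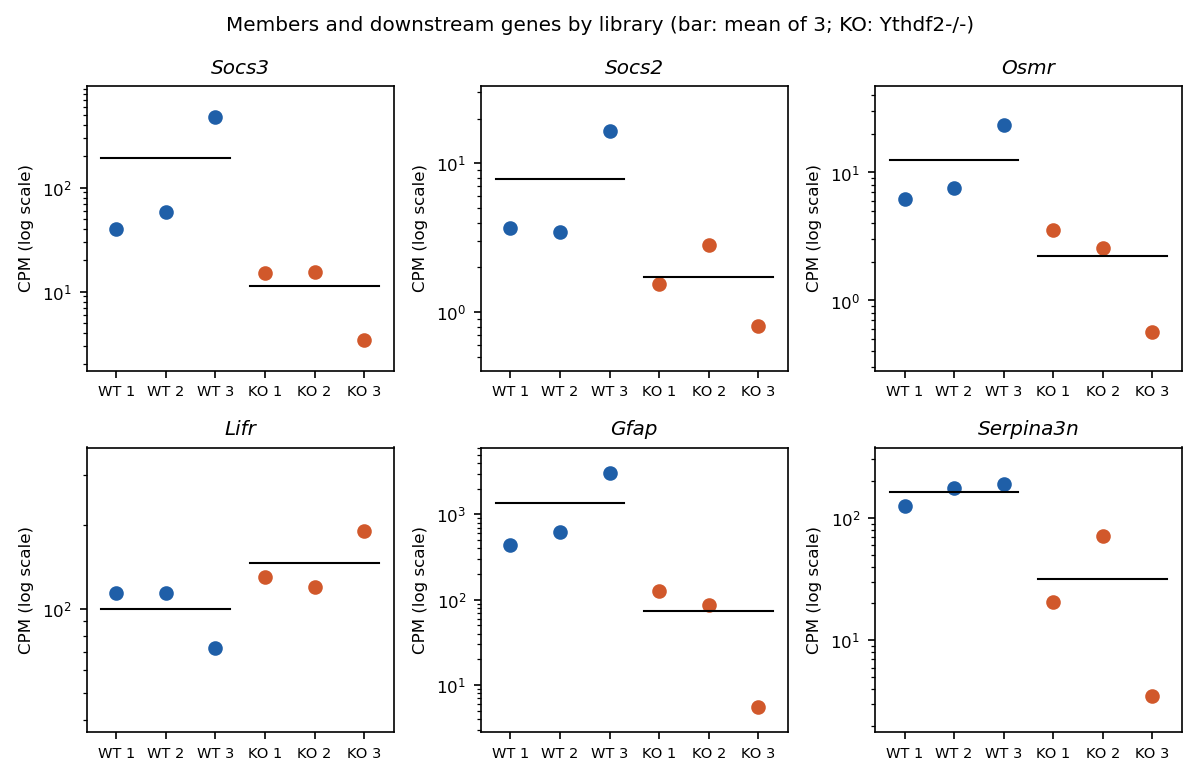
CPM by library (log axes that differ between panels) of Socs3, Socs2, Osmr and Lifr and of the downstream genes Gfap and Serpina3n, with a bar at the mean of each genotype. In Socs3, Socs2, Osmr and Gfap wild-type replicate 3 is the highest point and Ythdf2-/- replicate 3 the lowest, and Lifr runs the other way.

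The sequence around a transcript start of 3 of these genes and of Gfap is shown because Stat dimers bind the palindrome TTCNNNGAA. Each run holds 180 bases before and 30 bases from the start of a curated transcript on, 5′ to 3′ in the direction of transcription, from RefSeq on GRCm38.p6, and capitals mark matches to that palindrome. The runs cover chr11:117969337-117969546 (minus strand) for Socs3, chr9:107296479-107296688 (plus strand) for Cish, chr15:6874284-6874493 (minus strand) for Osmr and chr11:102897171-102897380 (minus strand) for Gfap. The gene spans given above for Socs3 and Osmr also take in predicted transcripts that begin 970 and 655 bases farther upstream, so the runs of these genes lie inside their spans.
Socs3: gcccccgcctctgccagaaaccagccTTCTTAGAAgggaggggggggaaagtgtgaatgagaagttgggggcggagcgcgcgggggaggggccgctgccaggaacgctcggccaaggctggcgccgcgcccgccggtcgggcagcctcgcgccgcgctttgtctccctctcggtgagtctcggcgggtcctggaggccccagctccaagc
Cish: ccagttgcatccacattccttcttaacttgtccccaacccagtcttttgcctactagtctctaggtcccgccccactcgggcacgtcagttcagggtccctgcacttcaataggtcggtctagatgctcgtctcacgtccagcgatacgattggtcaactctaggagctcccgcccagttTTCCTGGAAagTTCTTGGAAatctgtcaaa
Osmr: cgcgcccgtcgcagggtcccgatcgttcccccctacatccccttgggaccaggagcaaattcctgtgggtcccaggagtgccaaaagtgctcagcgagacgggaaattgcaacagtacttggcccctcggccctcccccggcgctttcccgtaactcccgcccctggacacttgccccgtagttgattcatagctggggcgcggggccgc
Gfap: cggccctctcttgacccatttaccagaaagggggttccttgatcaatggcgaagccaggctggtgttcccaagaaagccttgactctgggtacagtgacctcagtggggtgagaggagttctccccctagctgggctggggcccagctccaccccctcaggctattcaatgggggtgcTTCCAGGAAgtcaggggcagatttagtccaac
The match of Socs3 begins 154 bases before the start, that of Gfap 2 bases before, and Cish has a pair, beginning at bases 1 and 12 of the transcript. Osmr had no match in its window, which says only that these letters are not there. The palindrome reads the same on both strands. Over windows from 250 bases before to 50 after a start, it was found for 4 of the 34 members in the table, Socs3, Cish, Ifnar1 and Ifnar2, or 11.8%, and for 9.55% of all 27025 genes. A match is a description of the sequence and not evidence of binding. The table holds no window for Socs2, Socs5, Socs6, Socs7, Pias2, Pias4, Ptpn2 and Clcf1.

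The Pias genes encode SUMO ligases. Pias2 was the most abundant at 21.9 RPKM on average, with 108, 109 and 131 CPM in wild type and 120.4, 127 and 118 CPM in Ythdf2-/-. Pias1 had 37.5, 40.1 and 67.4 CPM against 45.0, 48.0 and 38.5 CPM, with wild-type replicate 3 highest, and its log2 fold change turned from -0.14 to 0.18 without that library. Pias4 (chromosome 10, 81153961 to 81167720, minus strand) had 16.1, 16.6 and 16.6 CPM against 20.3, 18.4 and 18.3 CPM. All Ythdf2-/- libraries of Pias4 lay above the wild-type ones, by a margin small in size, with a log2 fold change of 0.21 (standard error 0.147, unadjusted p = 0.206, adjusted p = 0.999 by edgeR). Pias3, which binds Stat3, had 32.1 ± 3.51 CPM and 31.4 ± 1.59 CPM (SD, n = 3 each). All 4 had 95% intervals within 1 log2 unit of 0.

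Ptpn11, also called Shp2, which links receptors to the Ras pathway, was the most abundant member per length in the mean of the 6 libraries, at 43.0 ± 6.16 RPKM in wild type and 40.3 ± 3.86 RPKM in Ythdf2-/- (SD, n = 3 each), although the wild-type means of Socs3 and Stat3 were higher. Its levels were 219, 223 and 281 CPM and 219.7, 209 and 251 CPM, with wild-type replicate 3 highest. Ptpn1, a phosphatase of Jak2 and Tyk2, had 121, 110.3 and 96.8 CPM against 106, 102 and 124 CPM. Ptpn2, its close relative, had means of 31.2 ± 2.25 and 27.2 ± 5.31 CPM (SD, n = 3 each). Log2 fold changes of these 3 phosphatases were -0.20 to 0.02. Ptpn6, or Shp1, typical of blood cells, had 3, 10 and 5 reads in wild type and 6, 7 and 6 in Ythdf2-/-. Sh2b3 (chromosome 5, 121815481 to 121837645, minus strand), an adaptor that restrains Jak2, had 20.2, 20.9 and 18.9 CPM in wild type and 17.4, 16.5 and 15.5 CPM in Ythdf2-/-. Every Ythdf2-/- library of Sh2b3 was below every wild-type library and the values within each genotype were close, at a log2 fold change of -0.28 (standard error 0.149, unadjusted p = 0.108, adjusted p = 0.999 by edgeR). Unlike Socs3, the value for Sh2b3 did not rest on wild-type replicate 3, without which it was -0.32.

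Per length, the most abundant members were thus Ptpn11 (41.7 RPKM), Stat3 (41.3), Jak1 (38.4), Socs3 (37.2) and Il6st (36.9), all as means of 6 libraries. The place of Socs3 rests on wild-type replicate 3, without which its mean was 9.78 RPKM and it ranked 17th of the 42, while the other 4 stayed the top 4. Socs3 was 70.2 ± 90.1 RPKM in wild type and 4.16 ± 2.51 RPKM in Ythdf2-/- (SD, n = 3 each).

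A further 86 pathway genes outside the 42 were read in the same way, and 59 of them passed the filter. None of the 59 had an adjusted p under 0.05 by edgeR, and 3 had an unadjusted p under 0.05, which is 5.08% of them against 3.63% of all genes. All 3 were in the list of 18 known Stat targets, where they make up 16.7%. Gfap, the intermediate filament of astrocytes, had 437, 625 and 3046 CPM in wild type and 127, 87.7 and 5.55 CPM in Ythdf2-/-. Its libraries follow the same pattern as Socs3, with wild-type replicate 3 highest, Ythdf2-/- replicate 3 lowest and no overlap. The log2 fold change of Gfap was -4.22 (standard error 1.30, unadjusted p = 0.0166, adjusted p = 0.999 by edgeR), and without wild-type replicate 3 it was -2.85. Its adjusted p by edgeR was below the threshold once a term for Y-linked reads was in the fit, at 0.0485. Serpina3n, a protease inhibitor of reactive astrocytes and the acute-phase response, had 126, 175 and 188 CPM against 20.4, 70.9 and 3.54 CPM. Here wild-type replicate 3 lay close to the other wild-type libraries, and the log2 fold change was -2.36 with all libraries and -2.24 without that one. Bcl6, a transcriptional repressor, went the other way with 32.3, 31.6 and 30.8 CPM against 54.7, 38.3 and 37.2 CPM (log2 fold change 0.46). Fos, an immediate early gene and the most abundant target per length in the mean of the 6 libraries, had 350.0, 414 and 2222 CPM against 264, 563 and 139.5 CPM, with overlapping genotypes. Without wild-type replicate 3 its mean fell from 312 to 164 RPKM, below Ccnd1, which encodes cyclin D1, at 343 RPKM.

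None of the 41 other tested genes in the remaining lists passed an unadjusted p of 0.05. The most abundant receptor outside the members was Crlf3, at 20.4, 22.1 and 11.7 CPM in wild type and 16.5, 12.7 and 14.8 CPM in Ythdf2-/-. Akt1, a kinase that many cytokine receptors reach through PI3-kinase, had 249.6, 231 and 221 CPM against 242, 246 and 229 CPM. Rnf7, a RING partner of the Cul5 ligase that Socs proteins recruit, had 85.5, 96.01 and 59.9 CPM against 73.0, 72.2 and 74.7 CPM. Of the 16 other cytokines only Tslp, the thymic stromal lymphopoietin, passed the filter, at 1.88, 1.45 and 0.0915 CPM against 1.11, 0.592 and 2.41 CPM. Genotypes overlapped in each of these 4 genes.

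Wild-type replicate 3, the highest library for Socs3, Osmr and Socs2, was also highest for the sums of 3 lists of cell type markers. The summed level of 6 astroglial markers, Gfap included, was 3416 to 10359 CPM in wild type and 2601 to 6199 CPM in Ythdf2-/-. For 6 neuronal markers it was 1058 to 1855 CPM and 1153 to 1285 CPM, and for 5 mesenchymal markers 1.80 to 32.4 CPM and 0.666 to 4.26 CPM. Wild-type replicate 3 was on top for 3 of the 6 astroglial, 4 of the 6 neuronal and 3 of the 5 mesenchymal genes, and the mesenchymal sum was almost all Pdgfrb, at 31.8 CPM there. Beyond that library the sums did not follow the 3 genes. Of the astroglial genes Gfap did, at 437 and 625 CPM in wild-type replicates 1 and 2 against 5.55 to 127 CPM in Ythdf2-/-. The other astroglial genes overlapped, and the largest part of that sum was Apoe, at 1884 and 2327 CPM against 1598 to 4618 CPM. Wild-type replicates 1 and 2 overlapped with the Ythdf2-/- libraries for the astroglial and mesenchymal sums. Their neuronal sums, 1058 and 1100.0 CPM, were below all Ythdf2-/- libraries, but were almost all Map2, at 1024 and 1061 CPM. Of the other neuronal genes, Stmn2 was higher there than in any Ythdf2-/- library, and the rest overlapped. The part of these cell types in the low Socs3, Osmr and Socs2 values was not tested. Endothelial markers summed to 0.915 to 2.21 CPM over 5 genes in wild type and 1.26 to 2.05 CPM in Ythdf2-/-, with Cldn5 at 0 throughout, and the 8 microglia and blood cell markers to 4.19 to 5.72 CPM and 2.73 to 3.54 CPM, mostly from Cd68, with every Ythdf2-/- library below every wild-type one.

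Y-linked reads were spread unevenly over the genotypes, so values are also given by their presence, as a description with no test, since each side has a genotype with 1 library. Where such reads were present, wild-type replicates 1 and 2 were set against Ythdf2-/- replicate 3, and the log2 ratio of the means was -3.85 for Socs3, -3.61 for Osmr and -2.14 for Socs2. Where they were absent, wild-type replicate 3, the library that stood apart, was set against Ythdf2-/- replicates 1 and 2, and the ratios were -4.96, -2.94 and -2.93. For Lifr the ratios were 0.74 and 0.79, and for Gfap -6.58 and -4.82. With the presence of Y-linked reads as a term beside genotype, edgeR gave an adjusted p of 0.0485 for both Socs3 and Osmr, with log2 fold changes of -4.48 and -3.17, and called 0.0991% of all genes. Gfap, outside the members, was called too, with a log2 fold change of -5.64. At an unadjusted p under 0.05 this fit picked out 5 members, or 14.3%, against 11.0% of all genes, namely Lifr, Osmr, Socs2, Socs3 and Cish.

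Since wild-type replicate 3 stood apart, the counts were also taken without it. Adjusted p-values under 0.05 were then found for 0 members and for 0.0151% of all genes. An unadjusted p under 0.05 was found for 6 members, or 17.1%, Lif, Cntfr, Osmr, Socs3, Socs4 and Sh2b3, against 16.6% of all genes, so the members' share was near the background. Of the 6, Cntfr and Socs4 were higher in Ythdf2-/- and the other 4 lower. Limma-voom with sample quality weights, which keeps that library at a weight of 0.0957, picked out 12 members, or 34.3%, against 27.9% of all genes, 6 higher and 6 lower in Ythdf2-/-. Wild-type replicate 3 was the highest of the 6 libraries in 11 of the 35 members and the lowest in 9, against 33.8% and 34.4% of all genes. Ythdf2-/- replicate 3 was the lowest in 10 members, Osmr, Socs2, Socs3, Jak3 and Cish among them, against 16.9% of all genes.

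**Figure D4:**
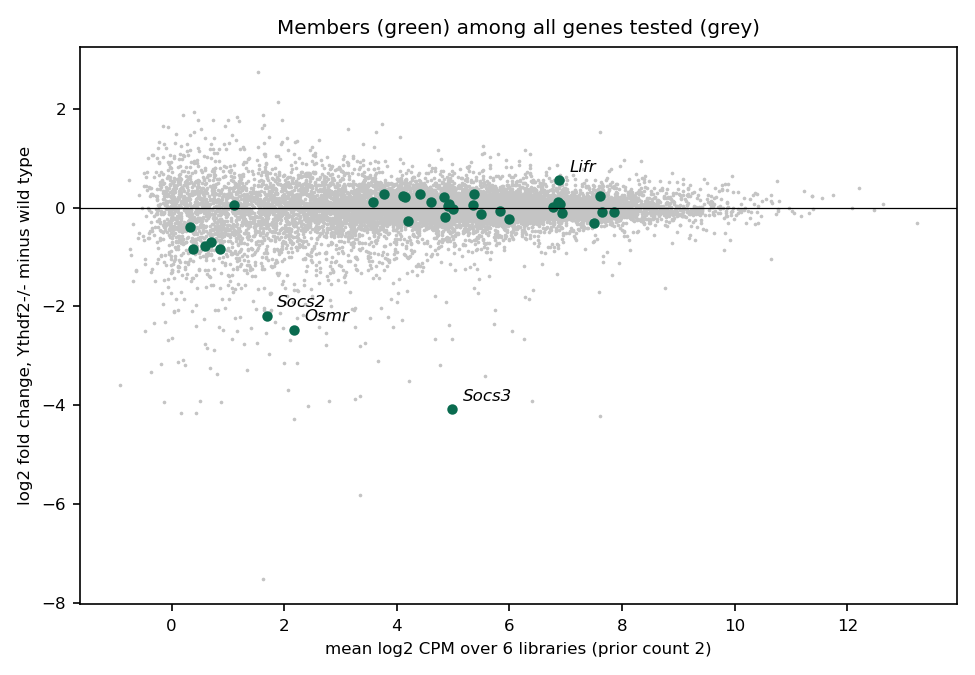
Log2 fold change (Ythdf2-/- minus wild type, edgeR) against mean log2 CPM over the 6 libraries for the 13112 genes tested (grey) and the 35 members (green). Most members lie along 0, and Socs3, Osmr and Socs2 lie under -2.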

How the data were processed

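RNA-seq input libraries of 3 wild-type and 3 Ythdf2-/- neurosphere samples were analysed, with genotype and replicate taken from the sample labels. The authors fragmented purified mRNA, made libraries with a stranded kit and deposited raw counts per gene, whole numbers without normalization. The paper names TopHat and mm10, and the submitters' notes name Bowtie2 2.2.9, RSEM 1.2.15 and featureCounts. The strand setting is not given in the sources used here. The authors also deposited expected counts, TPM and FPKM. The deposited expected counts summed to 1.97% to 2.40% of the raw counts, and to 416 to 754 reads over the 42 members per library. They listed Osmr and Socs2 at 0 in all 6 libraries. The FPKM values therefore served as an alternative, and the deposited TPM were not used.

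Raw counts were filtered with filterByExpr, scaled with TMM and tested over all genes with edgeR 4.0.16 (glmQLFit with the robust option and glmQLFTest, genotype as the only term) in R 4.3.3, with Benjamini-Hochberg adjustment. Log2 CPM used a prior count of 2. RPKM was CPM divided by kilobases of merged exons of curated RefSeq transcripts on GRCm38.p6. Alternatives, 16 fits in all, were another normalization, another or no filter, DESeq2 1.42.0, limma 3.58.1 (voom with quality weights, or log2(FPKM + 1) and log2(FPKM + 0.1)), a block for the replicate number, a term for Y-linked reads (a sum above 3 over 4 genes) and leaving out each library. The deposited FPKM were used where above 0 in at least 3 libraries. Scripts were tested on simulated data with known changes. Python 3.11.15 with pandas 2.3.3 was used for summaries.

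The members and the gene lists were chosen with earlier results of these data known. Values in every library are given for members whose genotypes did not overlap, those with an unadjusted p under 0.05 and up to 3 of the most abundant per role, and reads for those below the filter. Of the other pathway genes, Gfap, the most abundant per list and those with an unadjusted p under 0.05 and no overlap are named. Tceb1 and Tceb2 were listed but not found under those symbols.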

Additional observations from a re-analysis of the deposited data

How the results depend on the processing

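With all members considered, 0 had an adjusted p under 0.05 in every fit except DESeq2, which called 1 (Socs3), and the term for Y-linked reads, which called 2 (Socs3 and Osmr). The count with an unadjusted p under 0.05 was 5 with that term, 12 with quality weights and 0 with limma on log2(FPKM + 1) or log2(FPKM + 0.1). Other pathway genes under that threshold numbered 5 with DESeq2 (8.47% against 4.29% of all genes), 7 with the term (11.9% against 11.0%) and 20 with quality weights (33.9% against 27.9%). Gfap had an adjusted p under 0.05 with the term, and Pik3r1 with quality weights. With at least 10 counts in every library, 29 members were left, 3 of which were lower in all Ythdf2-/- libraries, and the median log2 fold change was 0.0450. This filter left out Osmr, Il6ra and Jak3, which had 7, 9 and 5 reads in their lowest library. No share of all genes is given for the non-overlap counts with this filter or with FPKM, so they are not set against a background. The FPKM fits covered 25 members, with 1 higher and 0 lower in all Ythdf2-/- libraries and medians of 0.14 and 0.15. They rest on few reads and left out Osmr and Socs2. Leaving out 1 library at a time gave 2 to 6 members with an unadjusted p under 0.05 (5.71% to 17.1%, against 1.85% to 16.6% of all genes), 3 to 6 members higher and 6 to 9 lower in all Ythdf2-/- libraries (against 7.25% to 18.8% and 7.15% to 20.1% of all genes), medians from -0.0781 to 0.0491, and 1 to 13 other pathway genes with an unadjusted p under 0.05 (1.67% against 1.85% of all genes at the lower end, 22.0% against 16.6% at the upper). The upper end of the p counts and of the median came without wild-type replicate 3. That fit turned the sign of 9 of the 35 members, quality weights of 9, the FPKM fits of 10 of the 23 that edgeR also tested, and leaving out another library of at most 6, none of them called. Same-numbered libraries of the genotypes did not deviate together (correlations of -0.25, -0.24 and -0.39). Deviations from a mean of 3 libraries depend on each other, so these correlations cannot settle whether the numbers pair the samples. With the replicate number as a block, 0 members had an adjusted p under 0.05, 0 an unadjusted p under 0.05, and 1 other pathway gene did (1.69% against 1.40% of all genes). The other normalizations changed no call. Causes of these shifts were not tested. Low counts limit Jak3, Cish, Il6ra, Stat5a, Lepr and the ligands. They also limit Osmr, with 42, 35 and 7 reads in Ythdf2-/- replicates 1, 2 and 3, and Socs2, with 18, 38 and 10.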
